A study of Mus musculus with 8 samples.

Results

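In MLO-Y4 cells 10 genes of the Notch pathway were followed, out of 55359 gene identifiers in the deposited table. They were taken by name, with earlier results of these data known. They comprise the receptors Notch1, Notch2, Notch3 and Notch4, the ligands Jag1 and Jag2, the glycosyltransferase gene Lfng, and the targets Hes1, Hey1 and Nrarp. MLO-Y4 is a mouse line with osteocyte features, derived from a mouse that carried a large T antigen transgene under the osteocalcin promoter; the labels give its genotype as wild type. It is a single line, so other osteocytes were not sampled. The study set 4 libraries of non-irradiated cells against 4 libraries of cells that received an Er:YAG laser (2940 nm, 6 J/cm2, 1 min, emitter 25 cm above the base of a 35-mm dish with the medium taken off). All cells grew on collagen-coated plastic, were seeded 72 h before irradiation, and gave RNA 6 h after it. The labels do not state whether the medium of non-irradiated cells was also removed.

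Notch receptors are single-pass membrane proteins that are switched on by ligands on a neighbouring cell. Binding lets ADAM10 cut the receptor outside the membrane and gamma-secretase cut it within, and the freed intracellular domain joins the DNA-binding protein RBPJ and Mastermind coactivators to turn on genes such as Hes1, Hey1 and Nrarp. In bone the pathway acts in osteoblasts and osteocytes, and truncating mutations that prolong NOTCH2 signalling cause the human bone-loss disorder Hajdu-Cheney syndrome. RNA levels do not measure receptor cleavage.

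Irradiated cells had more Hes1 and Notch2 RNA and less Notch1 and Jag1 RNA than non-irradiated cells. Hes1 rose 1.43-fold and Notch2 rose 1.2-fold, whereas Notch1 was 1.18-fold lower and Jag1 1.26-fold lower. Of the 10 genes 9 had enough counts to be tested, and 4 were called (quasi-likelihood test of edgeR, with a p adjusted after Benjamini and Hochberg over all 15164 tested genes and a threshold of 0.05), 2 in each direction. Over all tested genes 15.0% were called, 8.22% higher and 6.75% lower. The libraries of the groups did not overlap for those 4 genes, as was the case for 18.5% of all tested genes. Notch3, Notch4, Jag2, Lfng and Hey1 did not pass the test, and Nrarp was too low to be tested.

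Library totals ran from 43786209 to 51734166 counts. Control libraries are called C5 to C8, as their columns are, and the laser-treated ones are shortened here to L5 to L8, after the number that ends each column name. Levels are in CPM, counts scaled to a common library size, and errors after ± are SDs over the 4 libraries of a group (n = 4). Whether these are separate cultures is not stated, and p-values then reflect only library-to-library spread, which may be technical. Among defining osteocyte markers Sost, Mepe and Fgf23 had 0 counts in all libraries, while Pdpn, Gja1 and Phex were present. Dmp1 had 0 to 12 counts in control and 3 to 29 in irradiated libraries, too few to be tested. The 7 osteocyte markers summed to 738.5 to 764.8 CPM in controls and 927.2 to 960.6 CPM after irradiation, mostly from Pdpn and Gja1. The 6 macrophage and osteoclast markers, with Ptprc, Adgre1 and Acp5 at 0, summed to 77.8 to 89.9 and 81.8 to 90.7 CPM, and the tested members went different ways. Csf1r rose from 14.2 to 26.2 CPM (adjusted p = 1.06e-07), Ctsk fell from 65.7 to 57.1 CPM (adjusted p = 0.0188), and Cd68 was at 4.45 and 3.52 CPM without passing the test (adjusted p = 0.193). Lymphocyte markers (5, with Cd3e, Cd8a and Ms4a1 at 0) reached at most 0.272 CPM. The part of these markers in the Notch results was not tested. Because RNA came from whole dishes, fewer cells of a type and less RNA per cell cannot be told apart.

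Per kilobase of longest transcript, Notch2 had the highest level of the 10 genes in non-irradiated cells, at 26.6 ± 1.88 CPM per kb. Hes1 followed with 12.5 ± 0.862, Notch1 with 4.27 ± 0.148, Jag1 with 2.2 ± 0.0818 and Lfng with 0.9 ± 0.228 CPM per kb, and each of these was separate from its neighbours in all 4 libraries. Notch4 (0.324 ± 0.0314) and Notch3 (0.284 ± 0.0487 CPM per kb) overlapped each other, as did Jag2 (0.12 ± 0.0369) and Hey1 (0.109 ± 0.0915 CPM per kb). Nrarp came last. The top 7 places were the same in irradiated cells, and Hey1 and Jag2 changed places there, still overlapping. Summing all annotated exons as the length lowered Notch1 to 2.85 CPM per kb and Hes1 to 9.01 CPM per kb, and placed Notch3 above Notch4 in non-irradiated cells, though not in irradiated cells.

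**Figure D1:**
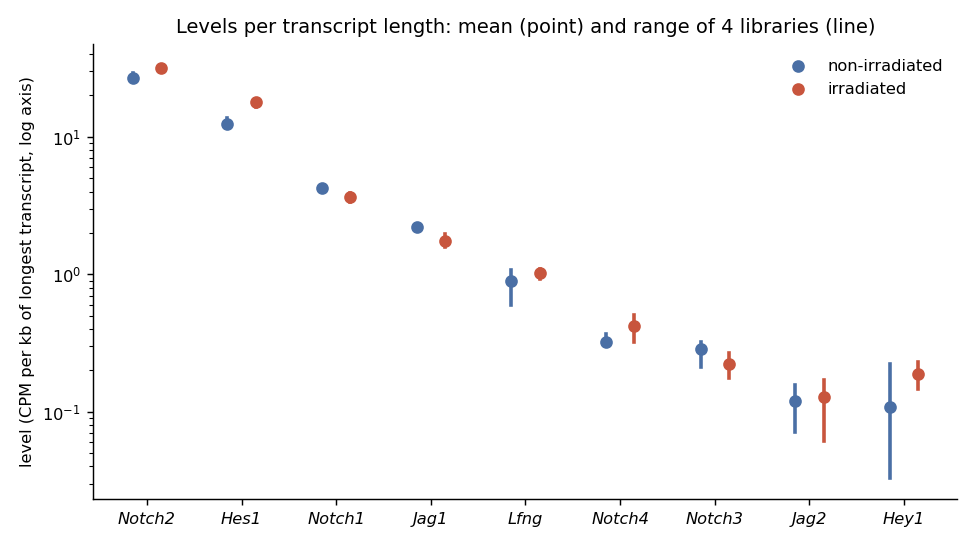
Level in CPM per kilobase of longest transcript, on a log axis, for 9 Notch genes in order of their non-irradiated mean; points are group means and lines span the 4 libraries of a group. Notch2 stands highest at 26.6 and 31.9 CPM per kb, and Hey1 and Jag2 lowest. Nrarp, at 0 in most libraries, cannot be shown on a log axis.

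Notch2 (ENSMUSG00000027878.12) gave most of the receptor RNA and was the receptor that rose. Its level was 279.3, 307.7, 264.3 and 267.2 CPM in C5 to C8 and 335.5, 321.9, 351.5 and 331.5 CPM in L5 to L8. The closest libraries were C6, the highest of the controls, and L6, the lowest of the irradiated ones. Means were 279.6 ± 19.8 and 335.1 ± 12.4 CPM (log2 fold change 0.26, SE 0.043, 95% interval 0.17 to 0.35, edgeR adjusted p = 0.00034).

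Notch1 (ENSMUSG00000026923.16) moved the other way. Non-irradiated libraries C5 to C8 held 39.7, 42.2, 39.1 and 41.1 CPM, and irradiated libraries L5 to L8 held 31.9, 34.1, 36.8 and 34.4 CPM. Every irradiated value was under the lowest control, with L7 nearest to it. The mean went from 40.5 ± 1.4 to 34.3 ± 2.02 CPM (log2 fold change -0.24, SE 0.058, 95% interval -0.36 to -0.12, edgeR adjusted p = 0.00769).

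The balance between these receptors can be read without any scaling, since both counts come from the same library. There were 7.04, 7.29, 6.76 and 6.5 Notch2 counts for each Notch1 count in C5 to C8, and 10.5, 9.42, 9.55 and 9.64 in L5 to L8. The groups were far apart on this ratio compared with their spread (6.9 ± 0.344 against 9.79 ± 0.503). As a share of the summed per-kilobase level of all 4 receptors, Notch2 made up 84.5 ± 0.685% in non-irradiated and 88.2 ± 0.48% in irradiated cells, and Notch1 13.6 ± 0.571% and 10 ± 0.442%. The summed level itself was 31.5 ± 2.02 and 36.2 ± 1.39 CPM per kb. These shares and sums take the longest transcript as length. With summed exons, Notch1 in non-irradiated cells was at 2.85 instead of 4.27 CPM per kb and Notch2 at 25.9 instead of 26.6. The shares thus depend on the length rule, which the SDs do not cover. No p-value is given for these ratios and sums, because their genes were combined with the single-gene results known.

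**Figure D2:**
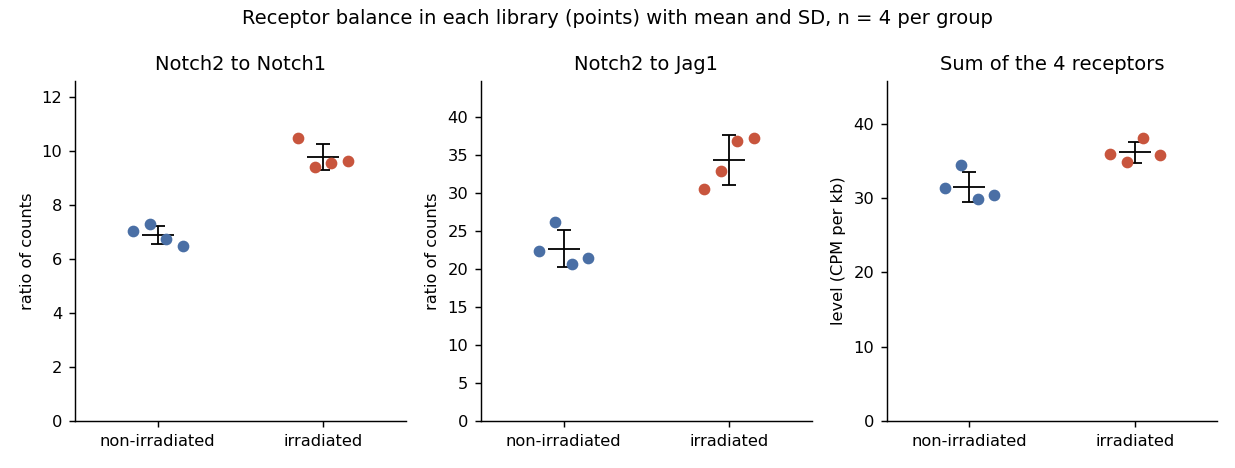
Ratio of Notch2 to Notch1 counts, ratio of Notch2 to Jag1 counts, and summed level of the 4 receptors (CPM per kb), one point per library with mean and SD of 4 libraries. Both ratios are higher in every irradiated library, from 9.42 upward against at most 7.29 for Notch2 to Notch1, and from 30.5 upward against at most 26.2 for Notch2 to Jag1. These separations follow from the single-gene differences.

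Notch3 and Notch4, best known from vascular smooth muscle and endothelium, were present at low levels. Notch3 (ENSMUSG00000038146.9) gave 1.7, 2.42, 2.55 and 2.45 CPM in the controls and 1.42, 2.15, 2.08 and 1.49 CPM in irradiated libraries. The groups overlapped, with C5 well under the other controls, and the log2 fold change of -0.35 was not called (95% interval -0.85 to 0.14, adjusted p = 0.371). Notch4 (ENSMUSG00000015468.15) gave 2, 2.44, 2.01 and 2.09 CPM and then 2.99, 2.13, 3.35 and 2.53 CPM, overlapping only through L6 (log2 fold change 0.36, 95% interval -0.078 to 0.8, adjusted p = 0.284). Endothelial markers were near 0: of 6 listed, Cdh5 and Kdr had no count in any library, and the list summed to 0.251 to 1.01 CPM in control and 0.272 to 0.693 CPM in irradiated libraries. Of the 5 mural markers Cspg4 made up nearly all of 261.2 to 276.5 CPM in controls and 291.5 to 310.7 CPM after irradiation, and Myh11, Rgs5, Des and Cnn1 each had between 0 and 23 counts in a library. Any part of the mural list in the Notch3 values was not tested.

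Among the ligands, Jag1 (ENSMUSG00000027276.8) fell. Controls held 12.5, 11.8, 12.9 and 12.4 CPM and irradiated libraries 11, 9.79, 9.53 and 8.89 CPM. All 4 irradiated libraries were below all controls, although L5 came close to C6. The means were 12.4 ± 0.459 and 9.81 ± 0.881 CPM (log2 fold change -0.34, SE 0.097, 95% interval -0.54 to -0.13, edgeR adjusted p = 0.0233). The call was lost on leaving out 1 of 5 libraries. Omitting C5, C7, C8, L7 or L8 gave adjusted p = 0.0595, 0.0692, 0.0548, 0.0664 and 0.078, while the log2 fold change stayed between -0.4 and -0.29 in all 17 alternatives.

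Jag2 (ENSMUSG00000002799.7), the second Jagged ligand, was a small part of the Jagged RNA. It ran from 0.364 to 0.796 CPM in controls and from 0.31 to 0.863 CPM in irradiated libraries, so the groups overlapped fully (log2 fold change 0.076, 95% interval -0.88 to 1.03, adjusted p = 0.941). Jag1 took 94 to 97% of the Jag1 and Jag2 counts in controls and 91.2 to 96.9% in irradiated libraries. Delta-type ligands were also scarce. Dll1, the one Delta gene with enough counts to test, stood at 0.518 ± 0.368 and 0.772 ± 0.267 CPM (adjusted p = 0.513), Dll3 had 9 counts in L6 alone, and Dll4 had 7 counts in L5 alone. Dlk2, a Delta-like relative outside the canonical ligands, was at 2.4 and 2.39 CPM (adjusted p = 0.994). Its exons overlap the opposite-strand gene Abcc10, which had 436 to 820 counts against 78 to 153 for Dlk2.

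Lfng (ENSMUSG00000029570.6) encodes Lunatic fringe, which extends O-fucose sugars on Notch and alters which ligands the receptor answers to. It gave 2.48, 2.48, 1.97 and 1.37 CPM in controls and 2.11, 2.29, 2.52 and 2.51 CPM after irradiation. The controls spread more widely than the irradiated libraries and enclosed L5 and L6, with L7 and L8 just above them, and no difference passed the test (log2 fold change 0.18, 95% interval -0.3 to 0.67, adjusted p = 0.68). Of the other fringe genes, Rfng was at 44.5 ± 1.08 and 43.6 ± 3.75 CPM (adjusted p = 0.834), and Mfng had no count in any library.

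Hes1 (ENSMUSG00000022528.9), a helix-loop-helix repressor and a direct target of the RBPJ complex, showed the clearest difference of the 10 genes. It stood at 18, 18, 17.2 and 20.2 CPM in C5 to C8 and at 26.4, 24.3, 27.6 and 26.5 CPM in L5 to L8. The lowest irradiated library, L6, was well above the highest control, C8. Means were 18.4 ± 1.27 and 26.2 ± 1.37 CPM (log2 fold change 0.51, SE 0.073, 95% interval 0.36 to 0.66, edgeR adjusted p = 4.87e-05).

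Hey1 (ENSMUSG00000040289.9), a related repressor, was at the edge of what this depth can measure. It had 4, 25, 17 and 4 counts in C5 to C8 and 17, 23, 24 and 23 counts in L5 to L8, or 0.264 ± 0.222 and 0.454 ± 0.0813 CPM. C5 and C8 were low, and C6 and C7 lay within the irradiated range (log2 fold change 0.78, 95% interval -0.49 to 2.05, adjusted p = 0.453). At the roughly 4 counts per fragment that the spread of low counts in the table points to, C5 and C8 would hold about 1 fragment each.

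Nrarp (ENSMUSG00000078202.4), an ankyrin-repeat protein gene that Notch induces and that acts back on the intracellular domain, was barely detected. Its total was 3 counts in C7 and 4 in L6, and 0 elsewhere. A count of 0 allows up to 0.058 to 0.0685 CPM depending on the library (3 counts of its total, counting error only). With about 4 counts to a fragment the limit would be about 4 times as high. A difference between the groups was not detectable at this depth.

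**Figure D3:**
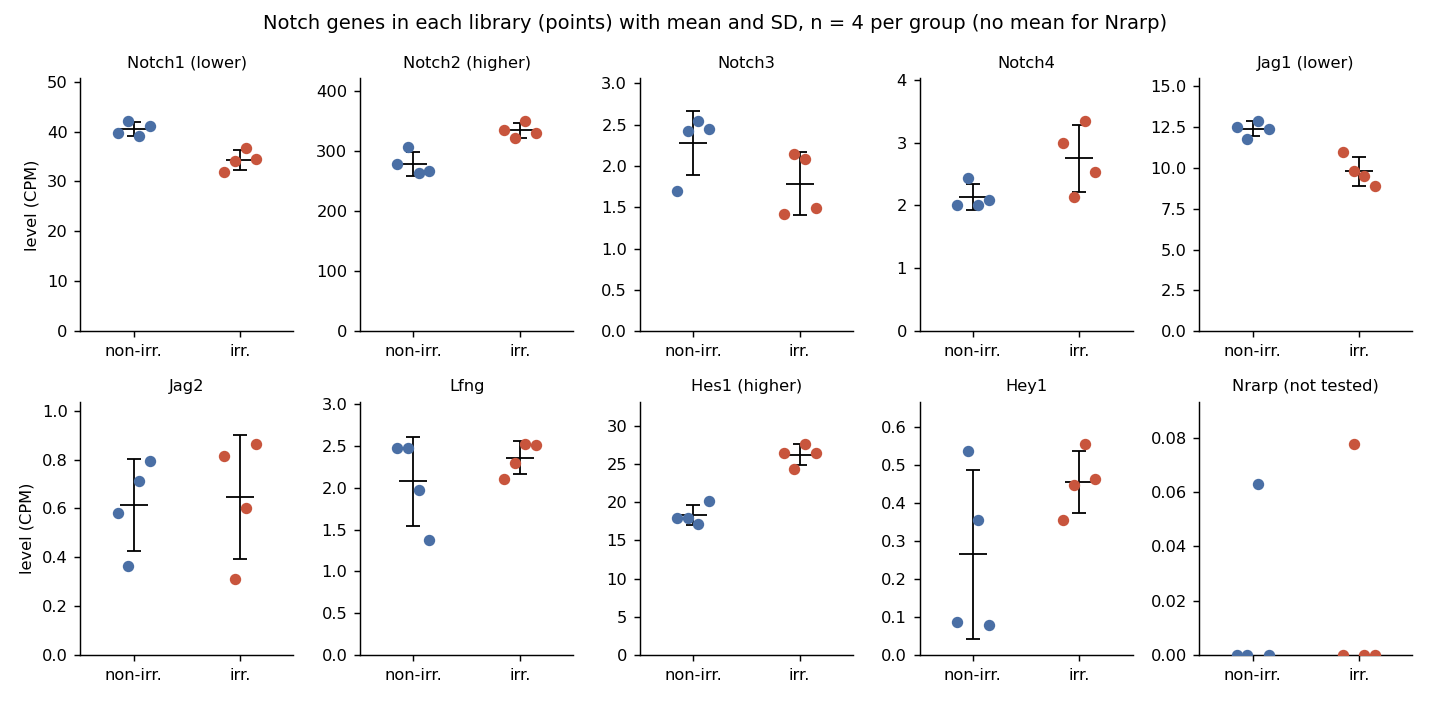
Level in CPM of the 10 Notch genes, one point per library, with mean and SD of 4 libraries (not drawn for Nrarp); every axis starts at 0. Hes1 and Notch2 are higher and Notch1 and Jag1 lower in all 4 irradiated libraries than in any control, and the groups overlap in the other genes.

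The promoters of the 3 receptor and ligand genes that changed, and that of Lfng, are shown to compare them for the core letters that RBPJ binds. They are the 250 bases before the transcript start from RefSeq on GRCm38.p6, 5′ to 3′ on the gene's strand, at chr3:98013288-98013537 (plus strand) for Notch2, chr2:26503823-26504072 (minus) for Notch1, chr2:137116521-137116770 (minus) for Jag1 and chr5:140607091-140607340 (plus) for Lfng. Capitals mark TGGGAA or its reverse complement TTCCCA.
Notch2: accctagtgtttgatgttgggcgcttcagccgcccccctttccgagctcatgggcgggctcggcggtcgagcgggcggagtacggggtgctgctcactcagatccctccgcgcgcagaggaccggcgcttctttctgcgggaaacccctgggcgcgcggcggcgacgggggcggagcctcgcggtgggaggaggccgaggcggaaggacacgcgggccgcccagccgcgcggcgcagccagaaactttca
Notch1: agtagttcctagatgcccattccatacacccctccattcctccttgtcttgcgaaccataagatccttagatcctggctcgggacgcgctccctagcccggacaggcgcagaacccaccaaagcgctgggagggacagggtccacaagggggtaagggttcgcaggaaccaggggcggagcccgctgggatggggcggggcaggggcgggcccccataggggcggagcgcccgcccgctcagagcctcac
Jag1: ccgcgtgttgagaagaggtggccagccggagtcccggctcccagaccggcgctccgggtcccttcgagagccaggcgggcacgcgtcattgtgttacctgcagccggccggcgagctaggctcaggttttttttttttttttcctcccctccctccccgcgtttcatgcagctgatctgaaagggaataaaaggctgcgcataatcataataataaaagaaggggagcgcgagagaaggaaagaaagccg
Lfng: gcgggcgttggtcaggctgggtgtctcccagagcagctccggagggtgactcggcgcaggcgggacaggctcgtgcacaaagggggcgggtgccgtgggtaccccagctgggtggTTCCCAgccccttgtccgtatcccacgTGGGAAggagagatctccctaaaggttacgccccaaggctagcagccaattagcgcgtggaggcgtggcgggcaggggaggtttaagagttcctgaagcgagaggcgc
Promoters were found for 8 of the 10 genes, without Hes1 and Hey1. Only Lfng held the RBPJ letters, once in each orientation, 135 to 130 and 108 to 103 bases before the start. The same letters occur in 21.6% of 32851 promoter windows of this length. The letters CACGNG, a form that HES and HEY proteins bind, searched on both strands, were in 23.5% of windows and matched once in Notch2, Notch3 and Nrarp, in 2 places in Jag1 and in 3 in Lfng, where 1 of them overlaps an RBPJ match. Notch1, Notch4 and Jag2 had no match to either. Such matches describe the letters in these windows and say nothing of binding.

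The rest of the pathway was read from a list of 55 further genes grouped by role, of which 45 had enough counts. Among these 6 were higher, 2 lower and 37 did not pass the test, a called share close to that of all tested genes, and the median log2 fold change was 0.018 against -0.0065 for all tested genes. The count depended on single libraries: 13 were called without C6, 5 without C8 and 5 without L5.

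Receptor maturation and cleavage held the largest change that passed the test. Furin, the Golgi protease that first cuts newly made Notch and also processes many other proproteins, gave 700.9, 747.3, 675.5 and 694.6 CPM in controls and 1199.1, 1201, 1271.2 and 1243.8 CPM after irradiation. The groups were far apart, and the rise was 1.74-fold (log2 fold change 0.8, SE 0.032, adjusted p = 6.3e-12). Adam10, the protease of the ligand-dependent cut, rose 1.12-fold, with means of 264 ± 6.45 and 296.1 ± 3.98 CPM (adjusted p = 0.000663). The other 8 genes of this group did not pass, among them all 7 gamma-secretase genes and Adam17, whose interval of -0.076 to 0.084 leaves room for only small differences. The sugar-transferase genes Pofut1 and Poglut1, which act on the receptor before it reaches the surface, gave log2 fold changes of -0.059 and 0.043 (adjusted p = 0.477 and 0.616).

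In the nucleus Rbpj stood at 27 ± 1.28 and 28.7 ± 1.5 CPM and was not called (log2 fold change 0.091, adjusted p = 0.402). The coactivator gene Maml3 rose 1.19-fold, with means of 25.4 ± 1.5 and 30.1 ± 2.55 CPM (adjusted p = 0.025) and was the 1 of 7 nuclear complex genes to be called. Of 8 corepressor genes 3 were called higher, where 8.22% of all tested genes were. Whether corepressors differ as a group was not tested, and of these calls only that of Spen held in all 17 alternatives. Spen, a repressor partner of RBPJ, rose 1.19-fold (113 ± 7.76 to 134.7 ± 11.8 CPM, adjusted p = 0.0103). Ctbp2 rose 1.15-fold (42.1 ± 2.36 to 48.5 ± 2.62 CPM, adjusted p = 0.0192). Its groups overlapped, with C7 at 45.6 CPM and L6 at 45.1 CPM. Without L5 the adjusted p was 0.108 for Maml3 and 0.0758 for Ctbp2, and these calls were also lost without other single libraries (C7, C8 or L7 for Maml3, and C8 or L8 for Ctbp2). Exons of Spen overlap the opposite-strand gene Zbtb17, which had 1370 to 1826 counts.

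Genes of ligand and receptor turnover included the 2 that fell. Neurl1b, a Neuralized-type ubiquitin ligase gene, dropped from 22.3, 18.9, 20.4 and 18.3 CPM to 15.9, 13.2, 15.2 and 16.5 CPM (1.31-fold lower, adjusted p = 0.0045). Numbl, a relative of the Notch antagonist Numb, fell 1.18-fold, with means of 55 ± 2.37 and 46.6 ± 1.39 CPM (adjusted p = 0.00278). For both genes every irradiated library was below every control. Groups without overlap, in either direction, were seen for 18.5% of all tested genes. Numb itself had a log2 fold change of -0.068 (adjusted p = 0.438), and the ligand-directed ubiquitin ligase gene Mib1 one of 0.081 (adjusted p = 0.44).

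Of the other Hes and Hey genes 3 had enough counts, and none was called. Hes6 ran from 9.52 to 12.6 CPM in controls and from 8.93 to 10.4 CPM after irradiation (adjusted p = 0.263). Hes7, known from the somite clock, gave 0.254 ± 0.14 and 0.617 ± 0.129 CPM without overlap, yet was not called at 6 to 37 counts a library (log2 fold change 1.27, 95% interval 0.19 to 2.35, adjusted p = 0.111). A gene on the opposite strand, 9130213A22Rik, overlaps its exons and had 4 to 33 counts, and whether counting used strand is not given in the sources used here. Hey2 gave 0.547 ± 0.256 and 0.956 ± 0.299 CPM (adjusted p = 0.231), and Hes5 and Heyl had 0 counts in every library. Opposite-strand or same-strand neighbours that overlap exons of Notch1, Notch2, Notch3 and Furin had at most 37, 40, 22 and 101 counts.

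**Figure D4:**
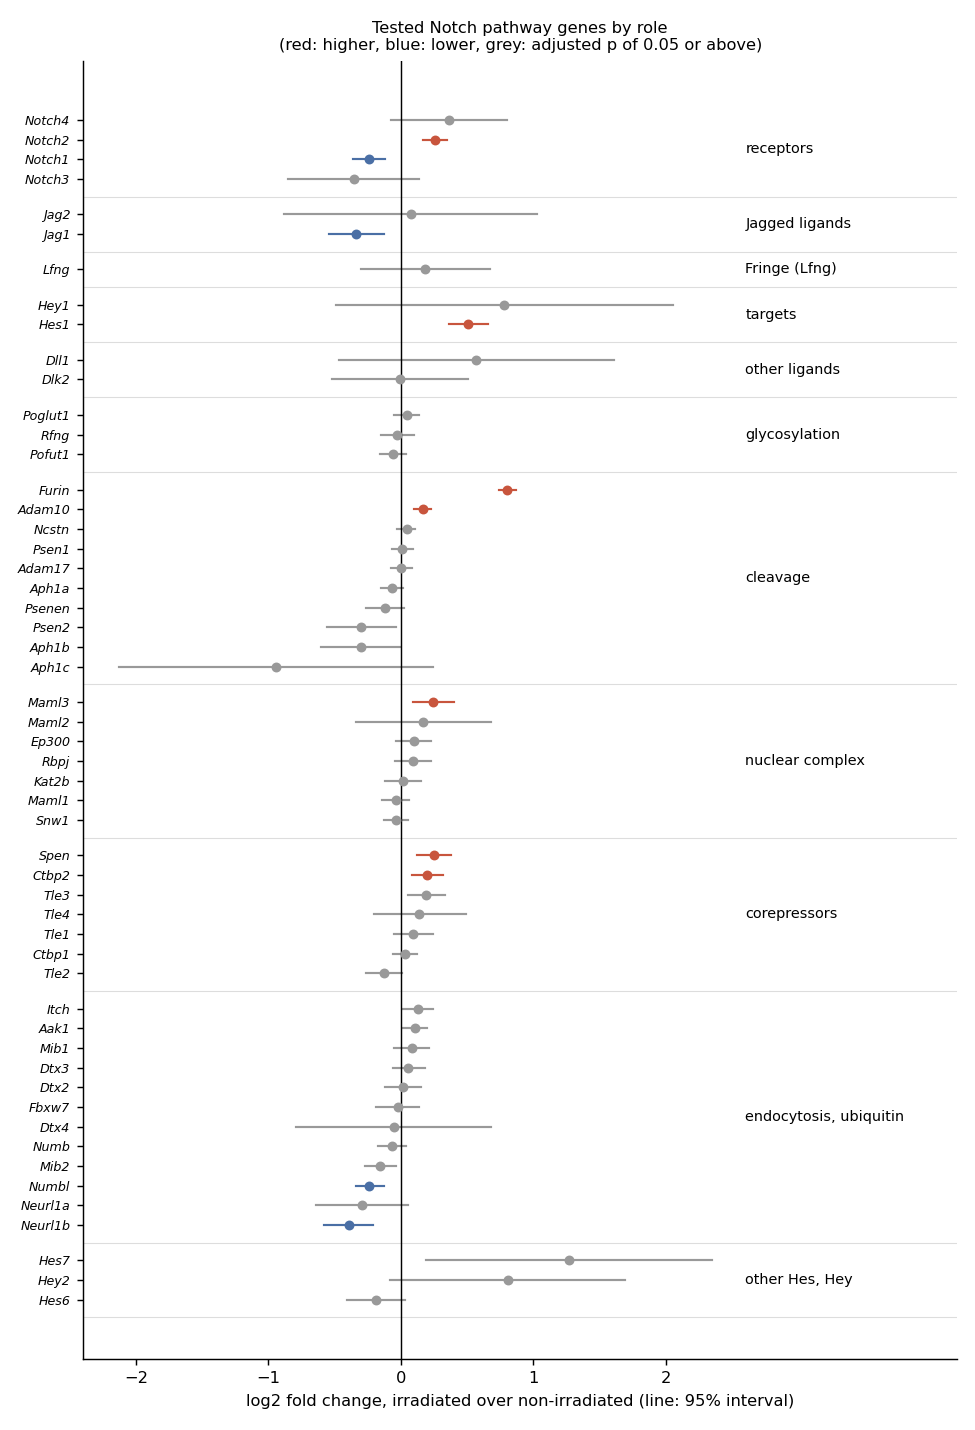
Log2 fold change, irradiated over non-irradiated, of the 9 tested Notch genes and of other tested pathway genes by role (1 corepressor gene is not drawn); lines are 95% intervals, and colours mark genes with an adjusted p under 0.05 that were higher (red) or lower (blue). Furin lies farthest from 0 among the called genes at 0.8, and intervals are widest for low genes such as Hey1 and Aph1c.

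Genes with the profile most like each changed member were found among 11146 others by the root mean square difference of centred log2 CPM over the 8 libraries, and they are given as a description. Nearest to Notch2 were Itpr1 (difference 0.0247), Cers6 and Micall1, with log2 fold changes of 0.25, 0.27 and 0.27. Nearest to Notch1 was Parp12 (difference 0.0302, log2 fold change -0.24), then Nphp4 and Trmt112. Hes1 was matched by Metrnl (difference 0.0567, log2 fold change 0.58), Plk3 and the homeobox gene Dlx3, and Jag1 by Rnf181 (difference 0.0583, log2 fold change -0.28), Tsc22d3 and Ube2d-ps. Differences were larger for Hes1 and Jag1, but so was the root mean square of their own centred profiles. It was 0.267 for Hes1 and 0.189 for Jag1, against 0.149 for Notch2 and 0.135 for Notch1.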

How the data were processed

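RNA-seq libraries were made from poly(A) RNA, per the labels' protocols. The authors deposited one table of whole-number estimated counts per gene, not normalized. According to the processing notes of the submitters, DESeq2 1.32.0, StringTie 2.1.7, HISAT2 2.2.1, FastQC 0.11.9 and Trimmomatic 0.39 were used, and GRCm39 is the build. Their settings and roles, the annotation release and the strand mode: not given in the sources used here. Low counts behave as if a fragment adds about 4 counts: among genes averaging 5 to 100 counts, the variance was in the median 4.21 times the mean in control and 4.32 times in laser-treated libraries, so counting error exceeds that of a Poisson count.

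Columns carry the numbers 5 to 8 and sample titles 1 to 4, so columns were tied to groups only. Identifiers without version were matched to symbols (52083 of 55359), and all 10 genes matched once. Genes were kept by filterByExpr (minimum count 10), scaled by TMM (factors 0.989 to 1.01) and fitted with group as the only term by edgeR 4.0.16 (glmQLFit, robust, glmQLFTest) in R 4.3.3. The SE is the size of the log2 fold change divided by the square root of F. Transcript lengths are from GENCODE M21. The script was tested on simulated data. Alternatives were DESeq2 1.42.0, limma-voom (limma 3.58.1), 2 other scalings, 2 other filters, counts divided by 4, a replicate block, each library left out, and both libraries numbered 6 left out. All members are named, with up to 4 called genes (or the 2 of lowest p) per role and the 3 most similar profiles among genes of at least 1 CPM. Rfng, Mfng, Dll3, Dll4, Rbpj, Adam17, Aph1c, Numb, Mib1, Hes5, Hes6 and Heyl were named after their values were seen. In the counts of pathway genes 1 corepressor gene is included that is not reported here. The members and lists were chosen with earlier results of these data known.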

Additional observations from a re-analysis of the deposited data

Results flagged for a closer look

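Among 28 groups of 4 values examined for a library far from the rest, 1 stood out, about what chance gives at 1 in 20. In non-irradiated cells Notch3 was at 1.7 CPM in C5, while the other 3 controls lay between 2.42 and 2.55 CPM, a gap of 0.841 of the group's range. Without C5 the log2 fold change of Notch3 was -0.47 (adjusted p = 0.261), against -0.35 with it.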

How the results depend on the processing

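Notch1, Notch2 and Hes1 kept direction and call in all 17 alternatives, with log2 fold changes of -0.27 to -0.21, 0.24 to 0.33 and 0.48 to 0.56 and adjusted p up to 0.0369, 0.00467 and 0.000916. Notch3, Notch4, Lfng and Hey1 kept direction wherever they could be fitted and passed in none. Hey1 and Jag2 were too low to test with the 1 CPM filter and with counts divided by 4. DESeq2 gave Hey1 a log2 fold change of 0.79 but no adjusted p. Of the members 3 or 4 were called in each alternative, Jag1 being the one lost. Library totals alone gave 1050 genes higher and 1345 lower (43.8% higher against 54.9%), and the members' 4 calls were the same in number and direction. The count of other pathway genes ran from 5 to 13 with 1 library left out and was 13 with both libraries numbered 6 left out; the cause was not tested. Directions that reversed were all of uncalled genes. Jag2 ran from -0.11 to 0.31, Dlk2 from -0.12 to 0.18 and Poglut1 from -0.0022 to 0.067 with 1 library left out. Dlk2 was 0.00051 with a filter of 1 CPM, 0.0088 with counts divided by 4 and 0.06 with both libraries numbered 6 left out, where Pofut1 was 3.9e-05.

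No pairing by column number was seen: deviations of same-numbered libraries correlated between -0.046 and 0.001, and those of other pairs between -0.022 and 0.033. Whether same-numbered libraries shared a culture or day is not stated. These correlations cannot decide it, because the deviations also hold counting error. With the number as a replicate block 1757 genes were called, with 4 members and 7 other pathway genes among them. Depth limits genes under 1 CPM, such as Hey1, Jag2, Hes7, Hey2, Dll1, Aph1c and Nrarp.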
